A study of Mus musculus with 96 samples.

Results

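The cytosolic ribosomal protein genes were followed in 4 tissues of mice, the pancreas, liver, striatum and gonadal fat, after daily injection of an antipsychotic drug or its vehicle. Members were all genes of the array whose symbol begins with Rpl or Rps followed by a number, or names a stalk protein of the Rplp series. Symbols of the ribosomal S6 kinases (6 genes) and 1 symbol marked as a pseudogene were left out. This gave 67 members among 19505 genes, each measured by a single transcript cluster (the set of probes that reads 1 gene). A total of 54 members are canonical subunits, 33 of the large and 21 of the small subunit. The other 13 are paralogue-like: Rpl10l, Rpl22l1, Rpl32l, Rpl36al, Rpl37rt, Rpl39l, Rpl3l, Rpl7l1, Rps19bp1, Rps23rg1, Rps27l, Rps27rt and Rps4l. Rps19bp1 encodes a protein that binds a subunit and is not one itself, and RefSeq lists Rps4l as a transcribed pseudogene. The class was set by the ending of the symbol, and whether its other genes encode ribosomal subunits was not checked.

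All mice were C57BL/6JOlaHsd. Vehicle-treated mice received saline with 5% DMSO and 5% Tween 20, and the drug groups received risperidone at 1 mg/kg or olanzapine at 3.5 mg/kg. All injections were subcutaneous, once a day for 28 days, and tissues were taken 1 h after the last one. Each group held 4 females and 4 males, the same 24 mice gave all 4 tissues, and a mouse is named below by its sex and its number (F20 is female number 20).

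Ribosomal proteins coat the ribosomal RNAs and form, with them, the small subunit, which reads the messenger RNA, and the large subunit, which joins the amino acids. Their messenger RNAs are among the most abundant of any cell, and cells make the subunits in matched amounts. Many of these messenger RNAs begin with a cytosine followed by an uninterrupted run of pyrimidines, the 5′TOP motif, through which the mTORC1 pathway controls how often they are translated. In the pancreas, acinar cells carry dense arrays of ribosomes for the production of digestive enzymes.

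The start of the genes on which the results turn is shown first, because the pyrimidine run at the start is the feature by which these genes are usually recognized. RefSeq promoter windows (build GRCm38.p6) of 300 bases, from 250 before to 50 after the start, were at hand for 54 of the 67 members. The lines below give 30 bases, the first 15 of them before the start, 5′ to 3′ on the strand of the gene, with the longest run of C or T in capitals where it had 6 bases or more. Where RefSeq gave several starts, the lines show the first listed. All choices below were made among the members with a window. The first 4 genes had the widest spread between pancreas arrays of the canonical subunits, the next 3 the narrowest, and the 3 after them the narrowest of the paralogue-like members. Rpl27 and Rps28 follow because they had the lowest p-values for olanzapine in the pancreas (Rpl36 and Rpl8, with p-values as low, had no window), Rpl36al and Rps27l because they differed between the sexes in the liver, and Rps6 because its protein is the substrate of the S6 kinases.
Rps15a (chr7:118116133-118116162, minus strand): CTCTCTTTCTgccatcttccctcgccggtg
Rpl35 (chr2:39005117-39005146, minus strand): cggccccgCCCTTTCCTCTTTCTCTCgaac
Rps16 (chr7:28350674-28350703, plus strand): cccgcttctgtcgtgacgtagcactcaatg
Rps21 (chr2:180257364-180257393, plus strand): taccgaggacccgCCCTCCTgcccaatagt
Rps24 (chr14:24490663-24490692, plus strand): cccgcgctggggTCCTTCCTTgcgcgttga
Rps19 (chr7:24884577-24884606, plus strand): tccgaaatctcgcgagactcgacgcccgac
Rps23 (chr13:90923107-90923136, plus strand): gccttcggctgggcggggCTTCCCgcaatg
Rpl3l (chr17:24727811-24727840, plus strand): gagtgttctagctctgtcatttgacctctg
Rps23rg1 (chr8:3567983-3568012, plus strand): gctttgcagagagTCTTTCTCTCaccccag
Rpl10l (chr12:66284387-66284416, minus strand): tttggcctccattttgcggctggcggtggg
Rpl27 (chr11:101442230-101442259, plus strand): acgctctgttcctgtctgctgctcgtgctg
Rps28 (chr17:33824548-33824577, minus strand): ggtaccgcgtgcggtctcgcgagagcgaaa
Rpl36al (chr12:69184053-69184082, minus strand): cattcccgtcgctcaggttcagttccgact
Rps27l (chr9:66946071-66946100, plus strand): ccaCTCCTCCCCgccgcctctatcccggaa
Rps6 (chr4:86857353-86857382, minus strand): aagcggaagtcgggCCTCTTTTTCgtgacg

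A run of 8 or more C or T within 25 bases of the start, read on the strand of the gene, was found in 27 of the 54 members with a window (50%) and in 22.2% of 15637 other array genes. Among the canonical subunits it was present in 22 of 42. The letters CTTTCC, searched in the same 50 bases and on the same strand, were present in 16.7% of members and 2.64% of other genes, and CTCTTT, which can overlap it, in 14.8% and 1.97%. The letters CGGAAG, the core of sites for ETS-family factors, were searched on both strands over the whole window and were present in 32 of 54 members (59.3%) and in 24% of other genes. A TATAAA element in the 50 bases before the start was present in 1 member and in 3.8% of other genes. In all of these counts a gene was counted if any of its listed starts had the match (65 windows for the 54 members). These matches describe letters in a window. The canonical subunits with a pyrimidine run (median SD between pancreas arrays of 2.05, n = 22) and without one (2.01, n = 20) spread to much the same extent. A run was counted anywhere in the 50 bases, so this split does not separate genes with a 5′TOP motif from genes without one.

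The arrays were checked before the members were compared. The mean of the markers of the labelled tissue was 19.00 to 19.37 in the liver (8 hepatocyte markers), 12.15 to 16.16 in the striatum (8 projection neuron markers), 12.03 to 18.93 in the pancreas (18 acinar markers) and 11.51 to 15.19 in adipose tissue (9 adipocyte markers). Arrays of 1 tissue correlated with each other at a median of 0.97 or more (striatum and liver), 0.80 to 0.95 (adipose tissue) and 0.65 to 0.85 (pancreas). The lowest of all was the pancreas of risperidone-treated F4, in which the mean of 8 hepatocyte markers was 15.47, while 20 of the other 23 pancreas arrays were below 10. In the fat of risperidone-treated M4, M5 and M23 the mean of 5 epididymis markers was 19.08, 19.01 and 19.26, against at most 11.66 in the other arrays. Striatum and liver RNA was labelled with another kit than pancreas and adipose RNA, a choice that the study made by RNA quality and amount. Levels were therefore never compared between tissues. A wider spread in pancreas and adipose tissue cannot be told apart from an effect of the kit or of RNA quality.

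The mean over the 67 members, in log2 units, was nearly the same in every striatum and liver array and far from it in the pancreas. It lay between 11.85 and 12.43 for striatum and between 11.83 and 12.52 for liver. In adipose tissue it went from 13.16 to 15.35. In the pancreas it went from 9.26 in olanzapine-treated M25 to 14.66 in vehicle-treated F20, a range of 5.40 log2 units. After treatment and sex had been removed, the SD of this mean over 24 arrays was 0.16 for striatum, 0.14 for liver, 0.58 for adipose tissue and 1.53 for pancreas. No p-value is given for these SDs.

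**Figure D1:**
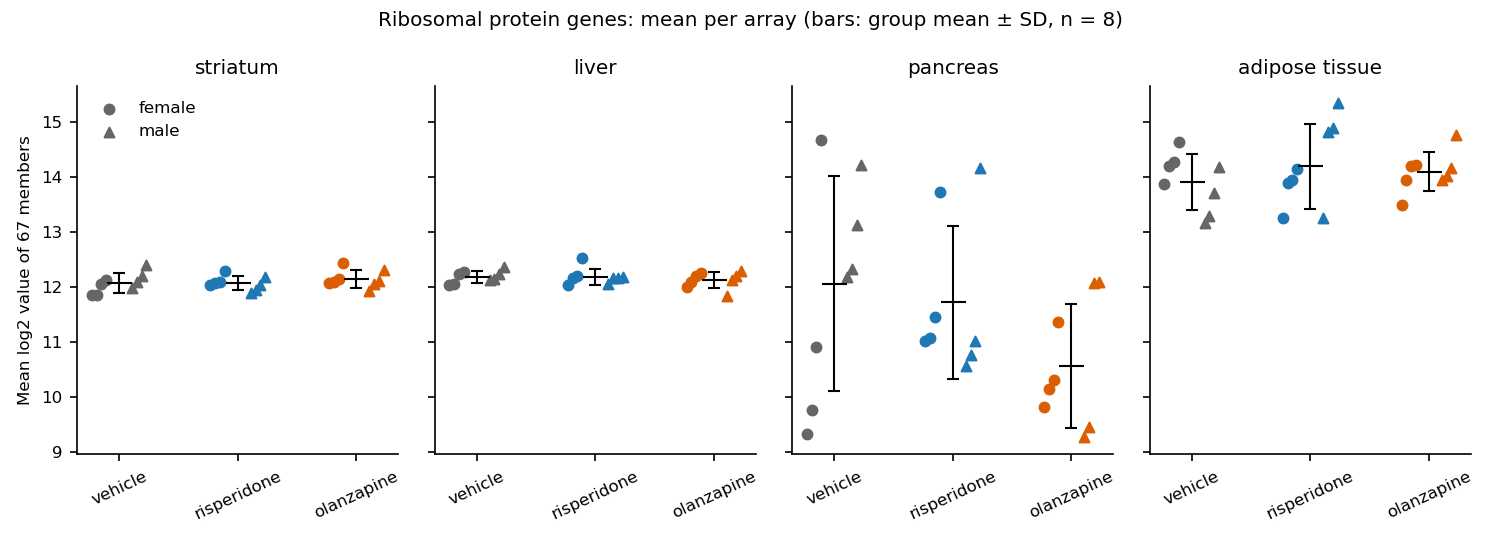
Mean log2 value of the 67 members in each array (y axis) by treatment (x axis) in the 4 tissues, with females as circles, males as triangles and bars for the group mean ± SD (n = 8). The striatum and liver arrays sit within 0.58 and 0.69 log2 units, while the pancreas arrays span 5.40 and overlap between all 3 groups.

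In the pancreas the vehicle-treated mice alone covered almost the whole range. Their lowest, median and highest values of the member mean were 9.31, 12.25 and 14.66 (12.06 ± 1.96, SD, n = 8). The risperidone-treated mice had 10.56, 11.04 and 14.15 (11.72 ± 1.4, SD, n = 8), and the olanzapine-treated mice 9.26, 10.22 and 12.09 (10.56 ± 1.13, SD, n = 8). The 5 highest arrays were vehicle F20, vehicle M19, risperidone M4, risperidone F5 and vehicle M3, and the 5 lowest were olanzapine M25, vehicle F21, olanzapine M9, vehicle F2 and olanzapine F26. All 3 groups overlapped, and no olanzapine-treated mouse was among the 7 highest arrays.

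The spread was shared by nearly all canonical subunits of both ribosomal subunits. The median SD of a member between pancreas arrays was 1.83 against 0.59 over all genes, and 49 of 67 members (73.1%) lay above the 95th percentile of all genes, 1.27. For the striatum, liver and adipose tissue the same count was 2, 1 and 6. A single component carried 83.8% of the variance of the members in the pancreas, 77.9% in adipose tissue, 49.7% in the striatum and 41.7% in the liver. The means of large-subunit and small-subunit genes moved together (r = 0.99 in the pancreas, 24 arrays, treatment and sex removed), as a description only, since both come from the same arrays.

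Rpl7, a large-subunit protein, had the widest spread, with 8.48 in olanzapine-treated M25 and 19.24 in risperidone-treated M4 (SD 3.11). Rps29, a zinc-binding protein of the small subunit, went from 7.43 to 18.62 (SD 2.78). Rps15a went from 6.93 to 16.81 (SD 2.77), the stalk protein gene Rplp1 had an SD of 2.64, and Rpl35, whose protein lies near the exit tunnel, went from 9.29 to 18.43 (SD 2.60). Each of these 5 genes had a correlation of at least 0.92 with the mean of the other members. In all, 37 of 67 members had such a correlation above 0.9 and 57 above 0.7 (24 arrays, same libraries).

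**Figure D2:**
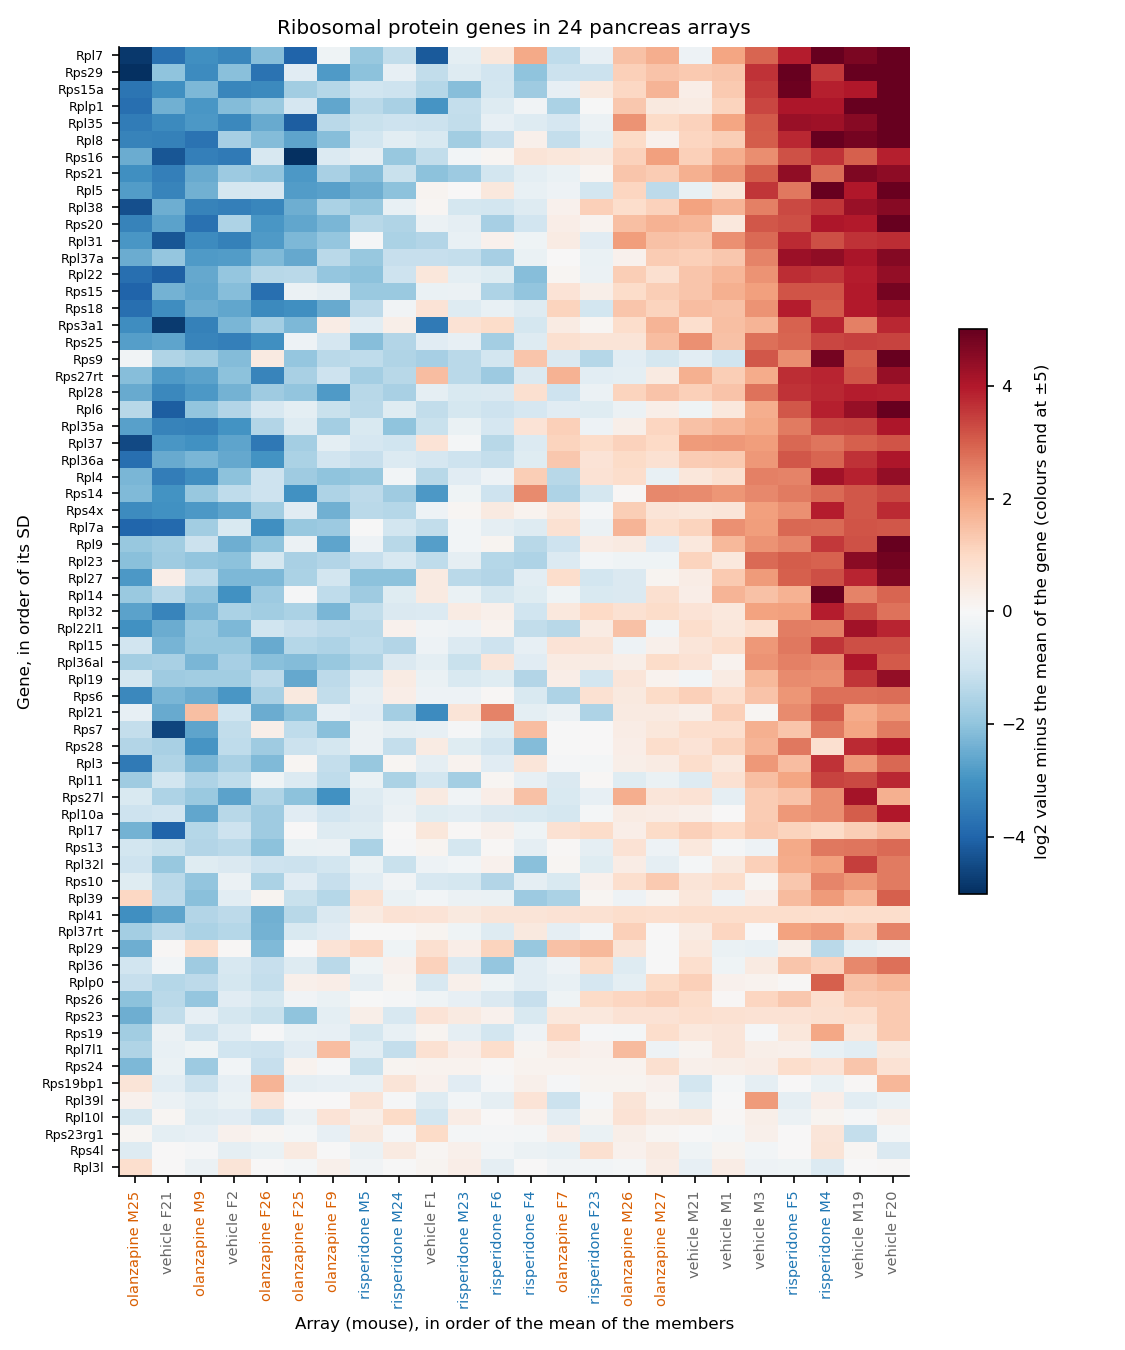
Log2 value of each member minus its own mean (colour) in the 24 pancreas arrays, ordered from left to right by the mean of the members and from top to bottom by the SD of the gene. The top rows change together from blue to red across the arrays, the lowest rows hardly change, and the olanzapine arrays (orange labels) lie to the left of the vehicle M21 array.

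The members with the smallest spread were paralogue-like genes. Rpl3l, the striated-muscle paralogue of Rpl3, varied little in the pancreas (5.99 to 7.51, SD 0.34), whereas Rpl3 itself went from 7.15 to 14.28 (SD 1.63). Rps4l had an SD of 0.38, Rps23rg1 of 0.45, Rpl10l, known for its expression in testis, of 0.50, and Rpl39l, another testis paralogue, of 0.66. Of these 5, the highest correlation with the mean of the other members was 0.23. Rpl39l, Rpl3l and Rps4l were recorded at means of 5.50, 6.67 and 6.98, below or near the median of all genes in these arrays (6.69 to 6.90), and without a background level their small spread does not show that they were steady. Rps4x, the X-linked canonical gene beside Rps4l, had an SD of 2.04.

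Other paralogues did follow the canonical genes. Rpl36al, an autosomal copy of X-linked Rpl36a, went from 6.88 to 13.19 in the pancreas (SD 1.72, r = 0.94 with the other members) and Rpl36a from 7.38 to 15.18 (SD 2.14, r = 0.97). Rpl22l1 and Rpl22 had SDs of 1.82 and 2.35. Rps27rt (SD 2.22), Rpl37rt (1.17), Rpl32l (1.33) and Rps27l (1.57) likewise had correlations of 0.79 or more. How far the probes tell such near-identical copies apart was not tested, so the values of the copies are uncertain.

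Among canonical subunits, Rps24 (14.20 to 17.83, SD 0.80), Rps19 (7.34 to 10.99, SD 0.85) and Rps23 (16.03 to 19.75, SD 0.95), a protein of the decoding centre, varied least. Rpl29 stood apart, with a correlation of -0.02 with the other members in the pancreas and -0.52 in adipose tissue. Rpl41 was recorded at a mean of 19.04 in the pancreas, the highest value of any member there, followed by Rps23 and Rps7, and Rpl39l at the lowest, 5.50, followed by Rps9 and Rpl3l. The highest 3 were Rpl4, Rps23 and Rps15 in the striatum, Rps6, Rps23 and Rpl28 in the liver and Rpl41, Rps7 and Rps23 in adipose tissue. Probe sets differ in how well they bind, so that these values give no order of abundance.

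Genes often used as constant references in quantitative PCR were members with this spread. In the pancreas of vehicle-treated mice, Rps18 had 12.17, 16.77 and 19.51 as lowest, median and highest value (16.32 ± 2.71, SD, n = 8), Rpl32 had 7.78, 11.68 and 14.34, and Rpl19 had 6.07, 7.99 and 12.24. Rplp0, the base of the stalk, was lower in spread, with 5.97, 7.60 and 9.07 (7.61 ± 1.17, SD, n = 8). Rps6 had 12.49, 16.43 and 18.20 (15.85 ± 2.13, SD, n = 8). In the liver of the same mice the SD was 0.31 for Rps18, 0.31 for Rpl32, 0.24 for Rpl19, 0.57 for Rplp0 and 0.10 for Rps6.

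Other genes moved with the members in the pancreas. The first principal component of the 19438 other genes held 23.6% of their variance and had a correlation of 0.94 in size with the member mean, and a straight line on the member mean accounted for 21.6% of the variance of those genes. In adipose tissue the same values were 44.0%, 0.92 and 38.3%. In the striatum the correlation with the first component was 0.06, and in the liver it was 0.13 with the first and 0.82 with the second component, which held 8.76% of the variance. All of these describe 24 arrays each and carry no p-value.

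The 17 other genes of 5′TOP type and ribosome partners (Eef1a1, Eef2, Tpt1, Npm1, Pabpc1, Rpsa, Fau and others) followed the members most closely of the lists, with r = 0.98 between the 2 means. Rpsa and Fau are themselves ribosomal protein genes, which the symbol rule did not take in. The 80 respiratory chain subunits had r = 0.89, the 76 mitochondrial ribosomal proteins 0.87 and the 39 proteasome subunits 0.87. The 40 ribosome biogenesis genes had 0.62, and the 19 genes of mTORC1, S6 kinases and 5′TOP regulators 0.34. The mean of the biogenesis list spread much less, with an SD of 0.23 against 1.53 for the members. Among cell type markers, r was 0.76 for fibroblasts, 0.73 for lymphocytes, 0.72 for macrophages, 0.71 for endothelial cells, 0.36 for acinar cells, 0.14 for islet cells and 0.17 for hepatocytes. In bulk tissue, fewer cells of a type and less RNA per cell cannot be told apart. Like the member mean (21.6%), list means were set as a straight line against all genes outside their list. They accounted for 23.0% of the variance (mitochondrial ribosomal proteins), 22.8% (5′TOP-type), 21.7% (proteasome), 21.6% (respiratory chain), 14.2% (biogenesis) and 7.67% (mTORC1). In adipose tissue the 12 lymphocyte markers gave 39.2% and all other lists at most 38.3%, the value of the members. The lymphocyte mean there was lower where the members were high (r = -0.88), the opposite sign to the pancreas.

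**Figure D3:**
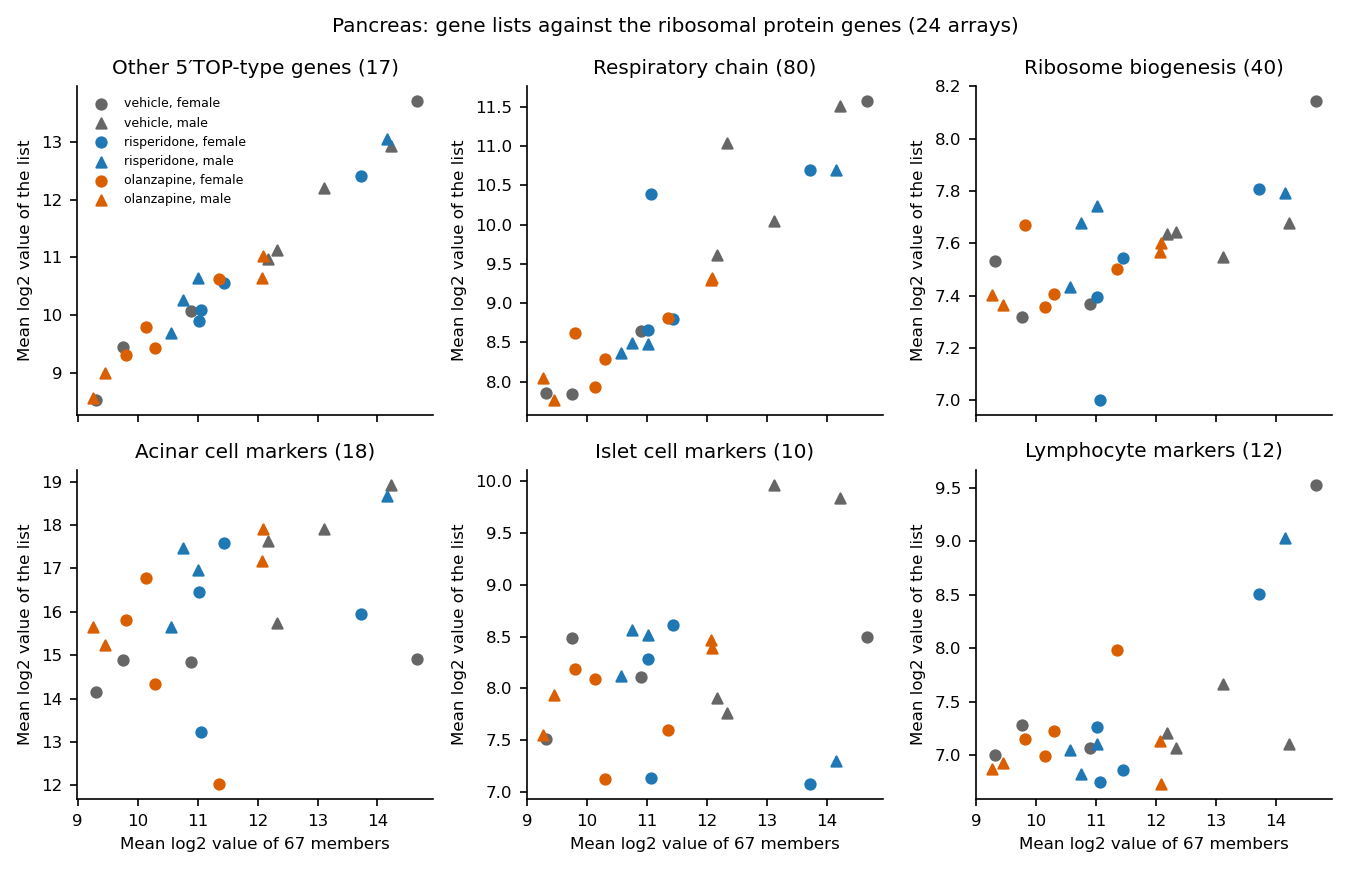
Mean log2 value of 6 gene lists (y axes) against the mean of the 67 members (x axis) in the 24 pancreas arrays, by treatment (colour) and sex (shape). The 5′TOP-type genes lie close to a line (r = 0.98), the respiratory chain nearly so (0.89), and the acinar and islet markers are scattered (0.36 and 0.14). The points are values as deposited, and each r was computed after treatment and sex had been removed.

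Lymphocyte markers were raised in only a few of the arrays that were high in members. Their mean was 9.53 in vehicle F20, 9.03 in risperidone M4 and 8.51 in risperidone F5, but 7.11 in vehicle M19, in which the member mean was 14.22. Acinar markers had a mean of 18.93 in vehicle M19 and 14.92 in vehicle F20. Their part in the spread of the members was not tested.

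Single genes outside the list were also compared with the member mean over the 24 pancreas arrays. The highest correlation was that of Rpl31-ps12 (r = 0.97), the symbol marked as a pseudogene that was left out of the members. The others of the 10 highest were the linker histone gene H1f2 (0.95), H2aj (0.93), Abracl, Pfdn5, the poly(A)-binding protein gene Pabpc1 (0.92), H4c4, Crip1, Psmb1 and Eif3m (0.92). The 10 with the lowest were Cfap97d2 (r = -0.85), Vmn1r216 (-0.83), Olfr68 (-0.82), Dnaja4, Olfr1404, Pate4, Olfr1355, Wiz, Prol1 and Kcnc1 (-0.79). Of the 100 genes with the lowest correlations, 18 were olfactory, vomeronasal or taste receptor genes, against 1447 of 19438 overall.

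The distribution of values in an array moved with the members as well. The median over all genes of a pancreas array lay between 6.69 and 6.90 and was lower where the members were high (r = -0.86), and the 95th percentile lay between 9.30 and 10.59 and was higher there (r = 0.90). In the striatum the 95th percentile lay between 13.26 and 13.41. When the arrays were quantile normalized again within the pancreas, the SD of the member mean was 0.93 in place of 1.53. The part of these shifts in the values of the members was not tested.

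A mouse with a high member mean in the pancreas did not tend to have one elsewhere. Across the 24 mice, the member mean of the pancreas had correlations of -0.13 with that of the striatum, -0.16 with that of the liver and -0.08 with that of adipose tissue, given as a description with no p-value.

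The effect of each drug on the members was then compared with vehicle. No member was called in any tissue for either drug (limma, adjusted p under 0.05 over 19505 genes). The share of all genes called was 0% in the striatum, pancreas and adipose tissue for both drugs, 0.041% for risperidone in the liver and 0.0205% for olanzapine in the liver. At an unadjusted p under 0.05, risperidone had 2 members higher (2.96% of all genes) and none lower (2.44%) in the striatum, 1 higher (2.82%) and 2 lower (2.58%) in the liver, none higher (1.8%) or lower (1.44%) in the pancreas, and 2 higher (5.03%) and none lower (4%) in adipose tissue. Olanzapine had 2 higher (5.94%) and none lower (4.6%) in the striatum, none higher (3.3%) and 5 lower (3.26%) in the liver, none higher (4.33%) and 27 lower (3.91%) in the pancreas, and none higher (2.55%) and 1 lower (2.91%) in adipose tissue. Outside the pancreas these shares were near those of all genes or rested on at most 5 members.

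In the pancreas the members were recorded at lower values after olanzapine, though no gene passed the adjustment. The median log2 difference from vehicle was -1.59 against 0.06 over all genes, 62 of the 67 members were below 0, and 27 members (40.3%) were lower at an unadjusted p, as against 3.91% of all genes. The members are not independent of each other, since they rise and fall together between arrays, so the 27 do not count as separate observations. The lowest adjusted p of any member was 0.572.

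Rpl36 had the lowest p. Its lowest, median and highest values were 8.61, 10.05 and 12.17 in vehicle-treated mice, 7.49, 9.41 and 10.79 in risperidone-treated mice, and 7.61, 8.60 and 9.39 in olanzapine-treated mice. The groups overlapped, and the difference of olanzapine from vehicle was -1.66 ± 0.49 (SE, limma, adjusted p = 0.572).

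Rps29 had 10.58, 14.01 and 18.62 in vehicle-treated mice and 7.43, 10.70 and 14.07 in olanzapine-treated mice, a difference of -3.30 ± 1.26 (SE). Rpl8, a protein close to the peptidyl transferase centre, differed by -2.97 ± 1.12, Rpl27 by -2.43 ± 0.89 and Rps28 by -1.96 ± 0.75. All 4 had the same adjusted p as Rpl36, and in each the olanzapine group overlapped the vehicle group. Among the reference genes, the difference was -2.49 ± 1.04 for Rps18, -1.59 ± 0.77 for Rpl19, -1.50 ± 0.83 for Rpl32, -1.46 ± 0.76 for Rps6 and -0.58 ± 0.49 for Rplp0.

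Single mice moved the number of members lower at an unadjusted p. Leaving out vehicle F20 gave 6, and the number was 7 without vehicle M19, 9 without olanzapine M9, 10 without olanzapine M25, 12 without vehicle M3, 15 without olanzapine F26 and 17 without vehicle M1, and it was 43 without vehicle F2 and 49 without vehicle F21. The share of all genes lower in these fits was 2.35% to 3.48% where the number fell, 4.9% without vehicle F2 and 5.43% without vehicle F21. With quantile normalization again the number was 11 (3.35% of all genes), and the median member difference from vehicle was -0.75 in place of -1.59. The females alone gave a median difference of -0.80 and 0 such members (1.24% of all genes), and the males alone -2.52 and 43 (5.42%), while the interaction of olanzapine with sex had 0 members at an unadjusted p (4.03% of all genes).

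Other lists had differences of the same sign in the pancreas after olanzapine. Of the 17 5′TOP-type genes 6 were lower at an unadjusted p (median -1.46), and of the 80 respiratory chain subunits 35 (median -1.21). The counts were 7 of 39 proteasome subunits (median -0.47), 10 of 76 mitochondrial ribosomal proteins (-0.09) and 4 of 40 ribosome biogenesis genes (-0.05), and none of these genes passed the adjustment. Group medians of the acinar marker mean were 15.32, 16.71 and 15.73 under vehicle, risperidone and olanzapine, and those of the lymphocyte marker mean 7.16, 7.07 and 7.07.

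Risperidone gave a median member difference of -0.34 in the pancreas, with 49 of 67 below 0 and no member at an unadjusted p in either direction. This median had no stable sign: it was 0.06 without vehicle F20, -0.73 without risperidone M4, 0.55 in females alone and -1.27 in males alone, and -0.73 to 0.06 over all mice left out in turn. The lowest p belonged to Rpl27 (-1.62 ± 0.89, SE, limma adjusted p = 0.999). Directly compared, olanzapine was below risperidone in 64 of 67 members with a median of -1.20, 4 of them at an unadjusted p (1.58% of all genes), and none was higher at that p (2.44%). Those were Rpl41 (-1.50 ± 0.54), Rpl37rt (-1.23 ± 0.54), Rpl4 (-2.12 ± 0.96) and Rps6 (-1.59 ± 0.76), none of which passed the adjustment (limma adjusted p = 0.998). The median was -0.79 without risperidone F5 and -0.75 with quantile normalization again. Both comparisons of olanzapine use the same 8 olanzapine arrays.

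**Figure D4:**
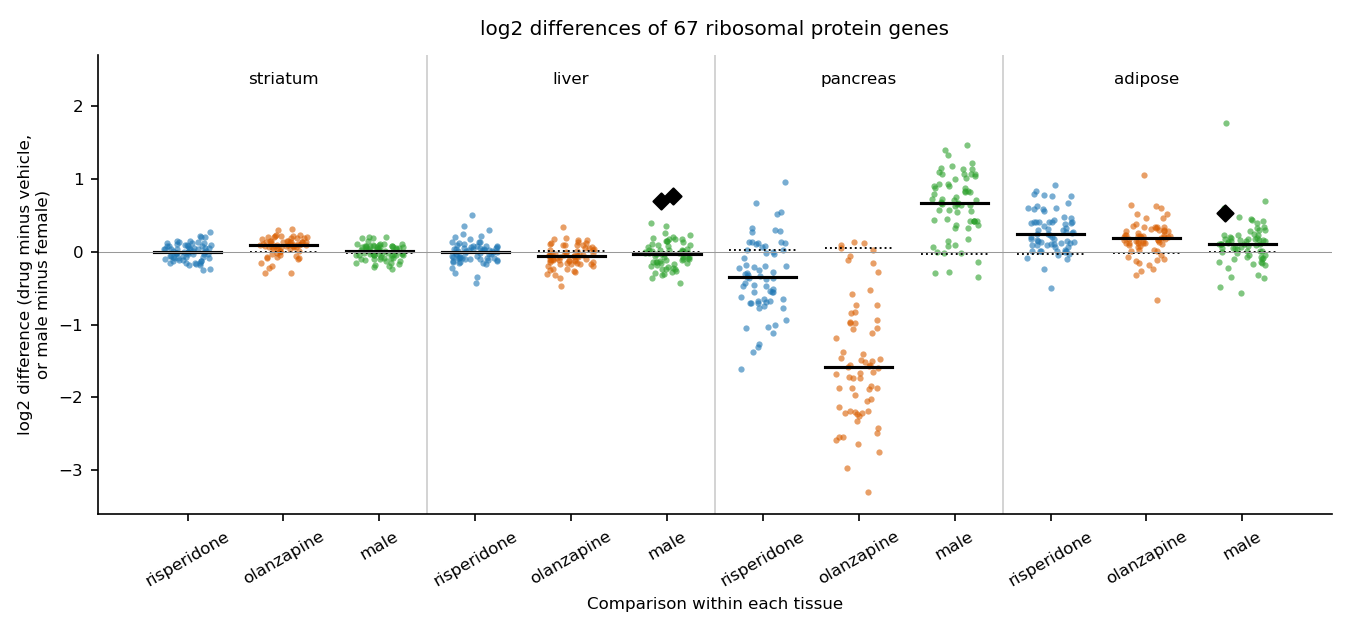
Log2 difference of each of the 67 members (points) for risperidone and olanzapine minus vehicle and for male minus female in each tissue, with a solid line at the members' median and a dotted line at the median of all genes. Black diamonds are the 3 members called at an adjusted p under 0.05, and the pancreas under olanzapine has its median at -1.59 with no member called.

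In the striatum and liver the members stayed close to the level of vehicle. The median member difference in the striatum was 0.00 for risperidone and 0.09 for olanzapine, and in the liver 0.00 and -0.06. The median SE of single members was 0.14 and 0.16. For olanzapine, 52 of 67 members were above 0 in the striatum (49.6% of all genes) and 21 in the liver (53.1%). For risperidone the counts were 34 (49.1%) and 35 (49.2%). The lowest p values in the striatum belonged to Rpl37a for risperidone (0.28 ± 0.12, limma adjusted p = 0.913) and to Rpl22l1 for olanzapine (0.32 ± 0.14, adjusted p = 0.419). In the liver they belonged to Rps21 for risperidone (0.51 ± 0.18, limma adjusted p = 0.668) and Rps9 for olanzapine (-0.47 ± 0.19, adjusted p = 0.653). Between the drugs no liver member was called (0.0564% of all genes), and 6 were lower (3.99%) and none higher (3.77%) after olanzapine at an unadjusted p, of which Rps9 had the lowest (-0.48 ± 0.19, adjusted p = 0.506).

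Olanzapine and risperidone differed in 948 striatal genes (4.86%), and none of the 67 members was among them. The nearest was Rpl29, at -0.49 ± 0.16 (SE, limma adjusted p = 0.0825), followed by Rpl6 at 0.32 ± 0.13 (adjusted p = 0.148). At an unadjusted p, 2 members were higher and 2 lower, against 10.8% and 8.26% of all genes. In the related lists, olanzapine was above risperidone for Nop10, a protein of the H/ACA particles that modify ribosomal RNA (0.41 ± 0.09, limma adjusted p = 0.0142). Rheb, the GTPase that activates mTORC1, was also higher (0.46 ± 0.12, adjusted p = 0.0247). Rps6ka5, counted with the S6 kinases by its symbol, was lower (-0.81 ± 0.22, adjusted p = 0.0308). No other of the 40 biogenesis genes and the 19 genes of mTORC1, S6 kinases and 5′TOP regulators was called there. These few calls stand beside the 4.86% of all genes. In the same comparison all 8 projection neuron markers were called lower after olanzapine (median -1.51), as were 2 of 6 choroid plexus markers (median -1.74), and their part in these differences was not tested.

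In adipose tissue the highest member means were those of a few males, and the 8 vehicle-treated mice alone had an SD of 0.51. The member mean of the risperidone-treated males was 14.81 in M4, 15.35 in M5, 14.88 in M23 and 13.24 in M24, and the risperidone-treated females had 13.25 to 14.15. The vehicle-treated males had 13.16 to 14.18 and the females 13.86 to 14.63. The first 3 of these males, the highest of all 24 arrays, are the arrays whose epididymis markers were near 19, and the next highest, olanzapine-treated M9 (14.76), had the highest epididymis mean of the rest (11.66).

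The median member difference for risperidone in adipose tissue was 0.24, with 60 of 67 members above 0. It was -0.47 in females alone, 0.93 in males alone and -0.31 without M4, M5 and M23, which leaves 1 risperidone-treated male. The median for olanzapine was 0.19, and 0.06 to 0.31 with 1 mouse left out (0.06 without vehicle M21, 0.31 without vehicle F2). It was -0.26 in females alone, 0.64 in males alone and -0.03 with quantile normalization again. Between the drugs no member was called (0% of all genes). The median of olanzapine minus risperidone was -0.06, with 1 member higher (4.89% of all genes) and 2 lower (4.34%) at an unadjusted p. Without M4, M5 and M23 that median was 0.46. The interaction of risperidone with sex had an unadjusted p under 0.05 in 49 of 67 members (13.2% of all genes), with a median of 1.52, and in none of them an adjusted p under 0.05 (0.0513% of all genes). Without the 3 arrays the term rests on 1 risperidone-treated male, assumed to vary like the other groups, and no member and 1% of all genes had an unadjusted p under 0.05, so that count of 0 does not show that the interaction was absent.

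Rpl3, a large-subunit protein of the peptidyl transferase region, had the lowest p of that interaction. It was recorded at 14.98, 16.37, 16.45 and 13.56 in risperidone-treated M4, M5, M23 and M24, at 13.50 to 14.52 in the risperidone-treated females, and at 13.56, 13.13, 14.33 and 12.65 in vehicle-treated M1, M3, M19 and M21. The interaction was 2.64 ± 0.66 (SE, limma adjusted p = 0.118).

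Rpl3l was 9.10, 8.92 and 8.33 in risperidone-treated M4, M5 and M23 and 8.28 in olanzapine-treated M9, and at most 7.12 in the other 20 arrays. Rpl39l was 12.90 in M4, 11.25 in M5 and 10.06 in M9, but 6.38 in M23 and 6.46 in M24, and Rpl10l lay between 6.81 and 7.82 in all 24 arrays. The part of epididymis tissue in the values of the members was not tested.

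**Figure D5:**
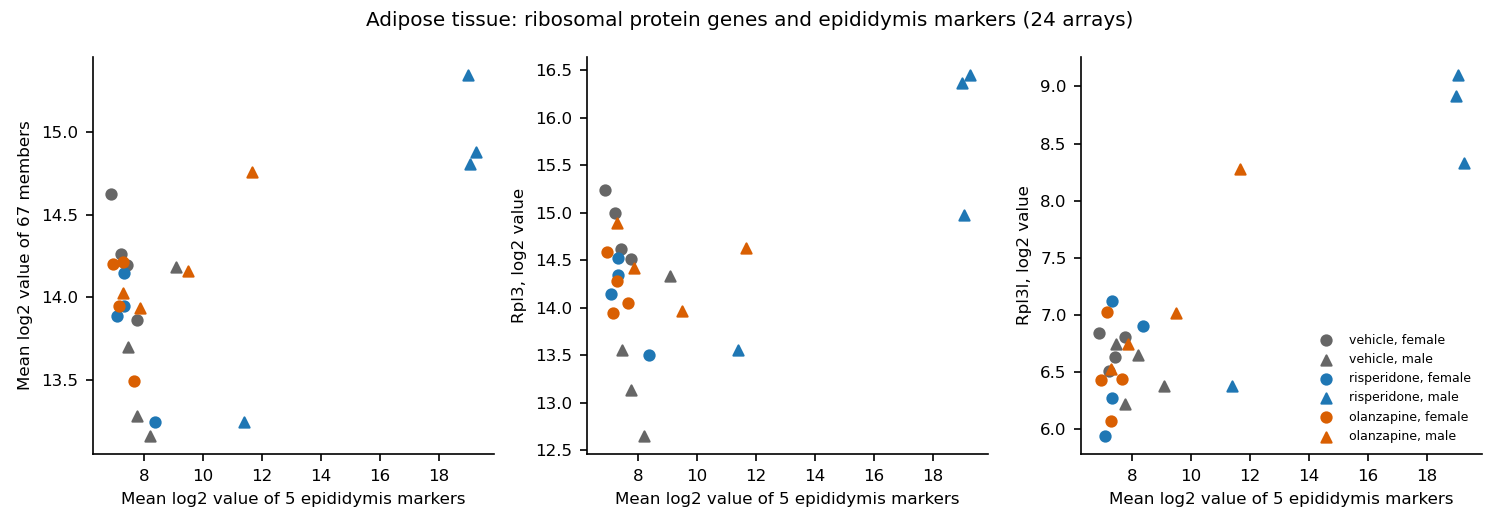
Mean of the 67 members, Rpl3 and Rpl3l (y axes, log2 values) against the mean log2 value of 5 epididymis markers (x axis) in the 24 adipose arrays, by treatment (colour) and sex (shape). The 3 risperidone-treated males at about 19 have member means of 14.81 to 15.35, above every other array.

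Sex was the only factor under which single members were called. In the liver 2 of 67 members were higher in males, among 1216 genes called (6.23%). Rpl36al had lowest, median and highest values of 8.52, 9.31 and 9.83 in females and 9.47, 10.10 and 10.41 in males (n = 12 each). The sexes did not overlap within the vehicle-treated or olanzapine-treated mice, and overlapped in the risperidone-treated ones through M4 at 9.47 and F23 at 9.50. The difference was 0.77 ± 0.13 (SE, limma adjusted p = 0.000121).

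Rps27l, a paralogue of the small-subunit gene Rps27, had 10.37, 10.69 and 11.27 in females and 11.14, 11.59 and 11.74 in males, with a small overlap. The difference was 0.70 ± 0.12 (SE, limma adjusted p = 0.000174). X-linked Rpl36a, the parent gene of Rpl36al, showed no such difference (12.33 to 13.26 in females and 12.09 to 12.78 in males, -0.15 ± 0.11, adjusted p = 0.540). Rpl35a (0.40 ± 0.13, adjusted p = 0.0637), Rpl21 (-0.36 ± 0.12, 0.0703) and Rpl3 (-0.43 ± 0.15, 0.0777) did not pass. The median over the members was -0.03, with 39 of 67 below 0, and at an unadjusted p 4 were higher (7.9% of all genes) and 7 lower (9.64%).

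Among related genes of the male liver, 17 of 80 respiratory chain subunits were higher and none lower, for example Cox7a2 (0.76 ± 0.11, limma adjusted p = 2.1e-05). Of the mitochondrial ribosomal proteins 7 of 76 were higher and 1 lower. Of the biogenesis genes 3 of 40 were higher, Nhp2 (0.62 ± 0.11, limma adjusted p = 0.000195), Nop10 and Nol6. The share of all genes called in either direction was 6.23%, and the biogenesis count is near that share. Of the cell type markers, 7 of 7 for macrophages (median -0.80), 4 of 6 for fibroblasts (-0.58) and 2 of 5 for endothelial cells (-0.46) were lower in the male liver, and their part was not tested.

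In adipose tissue 1 member was called between the sexes, Rpl21, among 897 genes (4.6%). It had 12.81, 13.21 and 13.92 as lowest, median and highest value in females and 13.43, 13.76 and 14.55 in males, a difference of 0.53 ± 0.15 (SE, limma adjusted p = 0.0369). The call was lost without any 1 of 14 of the 24 mice, with adjusted p-values up to 0.0791, and without M4, M5 and M23 the difference was 0.35 (adjusted p = 0.189). Rpl39l differed by 1.77 ± 0.64 (adjusted p = 0.121). At an unadjusted p, 4 members were higher (6.9% of all genes) and 3 lower (10.1%) in males, with a median of 0.11. Without the 3 arrays the median was -0.29, with 3 members higher (8.62% of all genes) and 11 lower (12.1%), which for both directions together is close to the share of all genes (20.7%). In that fit 1 member was called among 962 genes, Rpl7l1 (-0.63 ± 0.18, SE, limma adjusted p = 0.0496, against -0.48 and 0.119 with all arrays). In the same comparison with all arrays, 59 of 80 respiratory chain subunits, 20 of 76 mitochondrial ribosomal proteins and 11 of 39 proteasome subunits were called lower in males. So were 2 of 9 adipocyte markers, and 3 of 5 epididymis markers were called higher. All of this fat was gonadal, so sex and fat depot cannot be told apart in these comparisons, that of Rpl21 included.

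In the striatum and pancreas no member was called between the sexes (0.39% and 0.108% of all genes). At an unadjusted p none was higher (4.1%) or lower (2.91%) in the striatum, and none higher (1.79%) or lower (2.46%) in the pancreas, where the median member difference was 0.68 with 60 of 67 above 0. That median was 0.40 without vehicle F21, 0.44 without risperidone M4, 1.02 without vehicle F20 and 0.29 with quantile normalization again. No interaction of a drug with sex was called for any member in the 4 tissues, and only risperidone in adipose tissue had any gene called. At an unadjusted p the interaction of risperidone with sex had 10 members in the striatum (5.78% of all genes), 2 in the liver (4.78%) and 3 in the pancreas (4.96%). That of olanzapine had 6 in the striatum (6.01%), none in the liver (5.41%) and 16 in adipose tissue (2.54%). Rpl36a had the lowest p of these in the striatum under olanzapine (-0.85 ± 0.19, SE, limma adjusted p = 0.650).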

How the data were processed

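Expression was measured on Clariom S arrays. The table held log2 values for 22206 transcript clusters, which the authors made with RMA in Affymetrix Expression Console 1.4 per the submitters' processing notes and deposited for 96 arrays. Whether RMA was run on all tissues at once was not stated there, and the study's methods also name the Babelomics suite. A background level or detection call was not analysed here. Clusters were named through GEO's platform annotation (19572 had 1 gene, 2634 none), 55 genes with several clusters were averaged, and 19505 genes were tested. The WT PLUS kit served for striatum and liver RNA, the Pico kit for pancreas and adipose RNA.

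Each tissue was fitted with limma 3.58.1 (R 4.3.3) over 24 arrays with treatment and sex as terms, no filter, and Benjamini-Hochberg adjustment over all 19505 genes at a threshold of 0.05. The test was tried on simulated data. Spreads, components and correlations used residuals from treatment and sex (Python 3.11.15, numpy 2.4.6). The number of arrays limits the precision. Every mouse is a separate animal. Genes named are called members, up to 5 of the lowest p where none was called, the extremes of spread and value, the paralogues, common reference genes, the 10 genes most like and most unlike the member mean in pancreas, and called genes of related lists. Any other gene was picked once its value was known. The members, lists and tests were chosen with earlier results of these data known. Alternatives are given in the closing section.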

Additional observations from a re-analysis of the deposited data

Results flagged for a closer look

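In 51 groups of 8 mice, the highest and lowest values of the member mean and of the members described in full were compared with their neighbours, and a value was picked out where its gap to the next was too large a share of the group's range by Dixon's criterion at the 95% level. Chance picks about 1 in 20 groups, or 2.55 here, and 2 were found. In the liver, the member mean of risperidone-treated F23 was 12.52, with the next highest at 12.19. In the pancreas, Rplp0 was 10.40 in risperidone-treated M4, with the next highest at 7.67. No interaction of a drug with sex was called for a member.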

How the results depend on the processing

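No paired analysis was possible because the groups compared share no mouse. Across the alternatives, no member was called for a drug against vehicle in any tissue. With array weights, 2 members were called between the drugs in the striatum (0 otherwise), 4 between the sexes in the liver (2) and 3 between the sexes in adipose tissue (1). The adipose count was 0 with a trended and robust variance and with arrays centred on their median, and 14 with quantile normalization again. Quantile normalization again also took the SD of the member mean from 1.53 to 0.93 in the pancreas and from 0.58 to 0.31 in adipose tissue. The median member difference for risperidone in adipose tissue was -0.47 in females alone and 0.93 in males alone. Leaving out 1 mouse at a time gave 0 to 2 members in the striatum between the drugs (1 without risperidone F23, 2 without olanzapine M9), 2 to 4 in the liver between the sexes (4 without risperidone F23) and 0 to 1 in adipose tissue between the sexes. The cause was not tested. Rpl36al and Rps27l kept their calls with every mouse left out (limma adjusted p up to 0.000509). The call of Rpl21 was lost without vehicle F21 or M21, risperidone F4, F5, F23, M4, M5 or M23, or olanzapine F7, F9, F25, F26, M9 or M26, and with a trended and robust variance (adjusted p = 0.0849), array weights (0.0510) and centring (0.0637). With the member mean as a further term in the pancreas, 0 genes were called for either drug, as without it. The settings without the 3 arrays high in epididymis markers, and the counts at an unadjusted p, were chosen after seeing the data. The differences that a gene needs to be called are wide in the pancreas, where the median SE was 0.83 for a member and 0.29 over all genes.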
